A study of Mus musculus with 25 samples.

Results

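Slow (type I) muscle fibers contract slowly, resist fatigue and use their own versions of the contractile and calcium-handling proteins. The genes described here encode 10 of those proteins and were chosen by name for that role. No value of these data was in the rule, but earlier results of these data were known when the genes were chosen. They comprise the slow troponin genes Tnnt1, Tnni1 and Tnnc1, the slow myosin light chain genes Myl2 and Myl3, the slow tropomyosin gene Tpm3, the myosin heavy chain gene Myh7b, the Z-disc gene Myoz2, and the calcium-handling genes Atp2a2 and Casq2. Of the 10 genes, 9 were among the 8829 genes of the deposited table, each measured in all 25 mice. No value of Myh7b was analyzed here.

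The gastrocnemius, a calf muscle made mostly of fast fibers in the mouse, was taken from male SAMP8 mice, an inbred strain that ages early. All mice were 8 months old when dosing began and were dosed by mouth for 3 months. They received either corn oil alone (Control, n = 11 mice) or thymol in corn oil, 20 mg for each kg of body weight on dosing days (Thymol, n = 14 mice). Thymol is a phenolic terpenoid of thyme and oregano. The study asked how thymol acts on aging muscle in this strain, and each result below is set against the vehicle mice; no other strain was analyzed here. Each mouse gave 1 library of 3′ end reads (QuantSeq), in which a transcript gives reads only near its 3′ end, so that counts do not grow with transcript length. Values are log2 CPM, the log2 of reads scaled to a common library size by the authors. Mice are named by group and the last number of their label.

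In a muscle, thin filaments carry the troponin complex on tropomyosin, and calcium binding to troponin C lets myosin pull. Calcium is released from the sarcoplasmic reticulum, where calsequestrin stores it, and is pumped back by the calcium ATPases of the SERCA family. Slow and fast fibers make different proteins for most of these tasks, and the set of genes in use follows the fiber's nerve supply and activity. RNA of muscle tissue was measured and not of single fibers. Fewer slow fibers in the sample and less of these RNAs per slow fiber therefore cannot be told apart. Which part of the gastrocnemius was taken was not given in the sources used here.

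The 9 measured genes lie on 6 chromosomes (GRCm38, GENCODE M21). Tnni1 is at chr1:135779434-135810989, Tpm3 at chr3:90072649-90100902, Casq2 at chr3:102086415-102146514 and Myoz2 at chr3:123006206-123035015. Myl2 is at chr5:122100951-122113472, Atp2a2 at chr5:122453513-122502225, Tnnt1 at chr7:4504570-4516382, Myl3 at chr9:110741861-110769798 and Tnnc1 at chr14:31208312-31211729. Because these genes moved together between mice, the stretch before the start site is shown for 5 of them. Tnnt1, Tnnc1 and Myl3 followed slow myosin almost in proportion, and Casq2 and Myoz2 did so less steeply. The sequences are RefSeq's (GRCm38.p6) and run from 250 to 21 bases before the annotated start, 5′ to 3′. Capitals mark a TATA box (TATAAA), an MCAT motif (CATTCC), a MEF2 motif or a CArG box on either strand, and no marked motif overlaps another.
Tnnt1 (chr7:4515996-4516225, reverse strand): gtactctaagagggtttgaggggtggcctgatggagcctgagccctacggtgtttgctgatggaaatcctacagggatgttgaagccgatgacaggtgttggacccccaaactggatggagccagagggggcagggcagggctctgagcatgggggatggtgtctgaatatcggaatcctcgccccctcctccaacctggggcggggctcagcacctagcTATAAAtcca
Tnnc1 (chr14:31208062-31208291, forward strand): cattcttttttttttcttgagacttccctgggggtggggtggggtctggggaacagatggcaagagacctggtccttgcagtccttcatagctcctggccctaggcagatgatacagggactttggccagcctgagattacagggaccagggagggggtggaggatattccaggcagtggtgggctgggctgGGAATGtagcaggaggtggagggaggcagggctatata
Myl3 (chr9:110763428-110763657, forward strand): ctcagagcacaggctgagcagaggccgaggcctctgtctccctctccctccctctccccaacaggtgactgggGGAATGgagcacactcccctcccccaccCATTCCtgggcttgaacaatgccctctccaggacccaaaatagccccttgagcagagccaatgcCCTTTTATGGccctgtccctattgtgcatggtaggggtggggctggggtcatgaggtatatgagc
Casq2 (chr3:102086165-102086394, forward strand): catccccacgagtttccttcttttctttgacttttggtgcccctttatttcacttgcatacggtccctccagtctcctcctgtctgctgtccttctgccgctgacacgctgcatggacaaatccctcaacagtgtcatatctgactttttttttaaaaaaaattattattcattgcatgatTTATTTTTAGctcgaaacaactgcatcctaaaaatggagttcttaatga
Myoz2 (chr3:123035008-123035237, reverse strand): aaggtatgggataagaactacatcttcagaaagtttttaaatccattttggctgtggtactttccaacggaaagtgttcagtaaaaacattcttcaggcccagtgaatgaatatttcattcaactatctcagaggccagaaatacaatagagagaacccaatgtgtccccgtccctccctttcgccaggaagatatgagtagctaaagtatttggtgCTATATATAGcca
The windows of Tnnt1 and Myl3 lie inside the longer GENCODE gene models, in intron but for 9 and 12 bases, and that of Myoz2 reaches 8 bases into its first exon. Among 32851 windows of the same length before RefSeq start sites, 11.8% held a TATA box, 11.8% an MCAT motif, 1.57% a MEF2 motif and 1.41% a CArG box. Of the 9 genes of the group with a window, Myh7b included and Atp2a2 not, 2 held a TATA box (Tnnt1 and Myl2), 2 an MCAT motif (Tnnc1 and Myl3), 2 a MEF2 motif (Casq2 and Myoz2) and 1 a CArG box (Myl3). An E-box (CANNTG) was found for 8 of the 9 and in 63.5% of all windows, a CACC box (CCACCC) for 5 of the 9 and in 26% of all windows, and the NFAT core (GGAAAA) for none of the 9 and in 19.1% of all windows. A match is a description of the letters and does not show that a factor binds there.

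The libraries held 4463818 to 9463418 reads on the table's genes (median 7503259). The group's 9 genes took between 0.0124% and 0.967% of them, with a median of 0.228%. Fast-fiber RNA was abundant in every mouse, with the summed level of 9 fast-fiber counterpart genes between 94565 and 132361 CPM. One library stood apart for the slow genes. In the mouse Thymol 20 the 9 genes had 1099 reads in all, against 3448 reads in Thymol 3, the next lowest. Its total of 8845982 reads was among the larger ones and its fast counterparts summed to 109975 CPM, with Mylpf and Myoz1 at their highest of 25 mice. Results that rest on this mouse are given with and without it.

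The slow troponins varied widely between mice. Tnnt1 encodes the slow troponin T, which ties the complex to tropomyosin. It lay between 7.43 and 10.31 log2 CPM in Control (median 9.02) and between 2.83 and 10.79 in Thymol (median 8.49). Thymol 20 had 63 Tnnt1 reads, 1.51% of the median of the other 24 mice on the CPM scale, and the highest mouse was Thymol 6, with 13687 reads. Without Thymol 20, the range over mice was still 14.4-fold. Tnni1, the inhibitory subunit, lay between 5.31 and 8.27 log2 CPM in Control (median 7.02) and between 1.29 and 8.86 in Thymol (median 6.53). Tnnc1, the calcium-binding subunit shared by slow and cardiac muscle, lay between 6.09 and 9.50 log2 CPM in Control (median 7.96) and between 2.17 and 9.71 in Thymol (median 7.41). For each troponin gene, 9 of 14 Thymol mice fell inside the Control range, Thymol 20 and Thymol 3 fell below it and Thymol 6, Thymol 11 and Thymol 30 fell above it, so the groups overlapped widely.

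The light chains and tropomyosin shared the lowest and the highest mouse with the troponins. Myl2, the regulatory light chain of slow and ventricular myosin, lay between 6.32 and 9.24 log2 CPM in Control (median 7.86) and between 2.74 and 9.63 in Thymol (median 7.69). Myl3, the essential light chain, lay between 8.16 and 11.36 log2 CPM in Control (median 9.17) and between 3.32 and 11.54 in Thymol (median 9.03). Thymol 20 was the lowest mouse for both, with 59 and 89 reads, and Thymol 6 the highest. Tpm3, which gives slow alpha-tropomyosin but also shorter forms made in many other cells, lay between 6.72 and 10.00 log2 CPM in Control (median 8.67) and between 3.97 and 10.46 in Thymol (median 8.28). Thymol 20 kept 4.603% of the median of the other mice for Tpm3, against 1.74% for Myl3 and 2.79% for Myl2 (CPM scale). In the annotation 38.0% of the 31-base words in the last 500 bases of Tpm3 transcripts also occur in another gene, most often in Tpm3-rs7, so part of the Tpm3 reads may be split or lost.

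Casq2 and Myoz2 varied less, and Atp2a2 varied nearly as much as the genes above once Thymol 20 was left out. Atp2a2 encodes SERCA2, the calcium pump of slow and cardiac muscle. It lay between 6.27 and 9.03 log2 CPM in Control (median 7.98) and between 4.92 and 9.44 in Thymol (median 7.34). Thymol 20 kept 15.9% of the median of the other mice for Atp2a2 (CPM scale). Without this mouse the range of Atp2a2 was 12.8-fold, against 14.2-fold for Tpm3 and 7.22-fold for Myoz2. Myoz2, or calsarcin-1, binds calcineurin at the Z-disc of slow and cardiac muscle. It lay between 5.66 and 7.97 log2 CPM in Control (median 6.67) and between 4.69 and 8.20 in Thymol (median 6.60). Casq2, the cardiac and slow-muscle calsequestrin, lay between 3.88 and 6.09 log2 CPM in Control (median 4.70) and between 3.80 and 5.92 in Thymol (median 4.53). Casq2 was the exception to the low values of Thymol 20, which had 178 reads, 77.3% of the median of the other mice, and ranked 6 from the lowest. Thymol 28 was its lowest mouse, and its range over all mice was 4.91-fold, against 299-fold for Myl3.

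**Figure D1:**
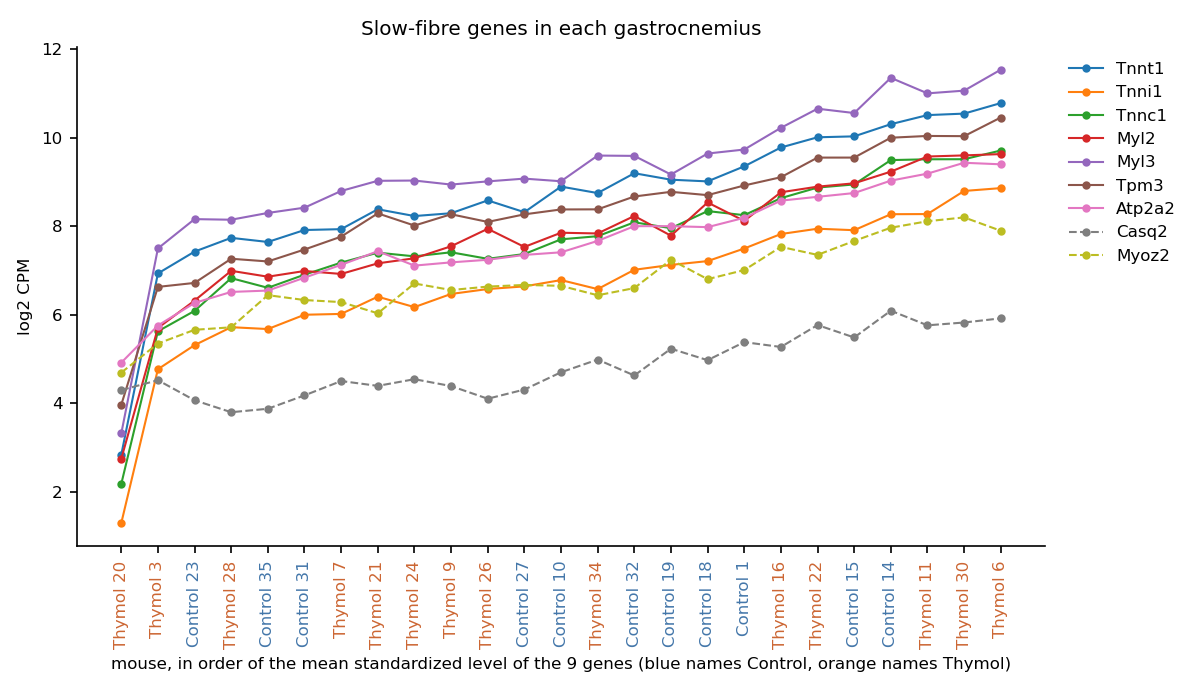
Level of each slow-fiber gene (log2 CPM, y axis) in each of the 25 mice (x axis, ordered by the mean standardized level of the 9 genes, group by name color). The lines rise together from Thymol 3 to Thymol 6, and Casq2 and Myoz2 (dashed) span smaller ranges. Thymol 20 is the lowest mouse for all but Casq2, by a smaller step for Atp2a2 and Myoz2 than for the other genes.

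**Figure D2:**
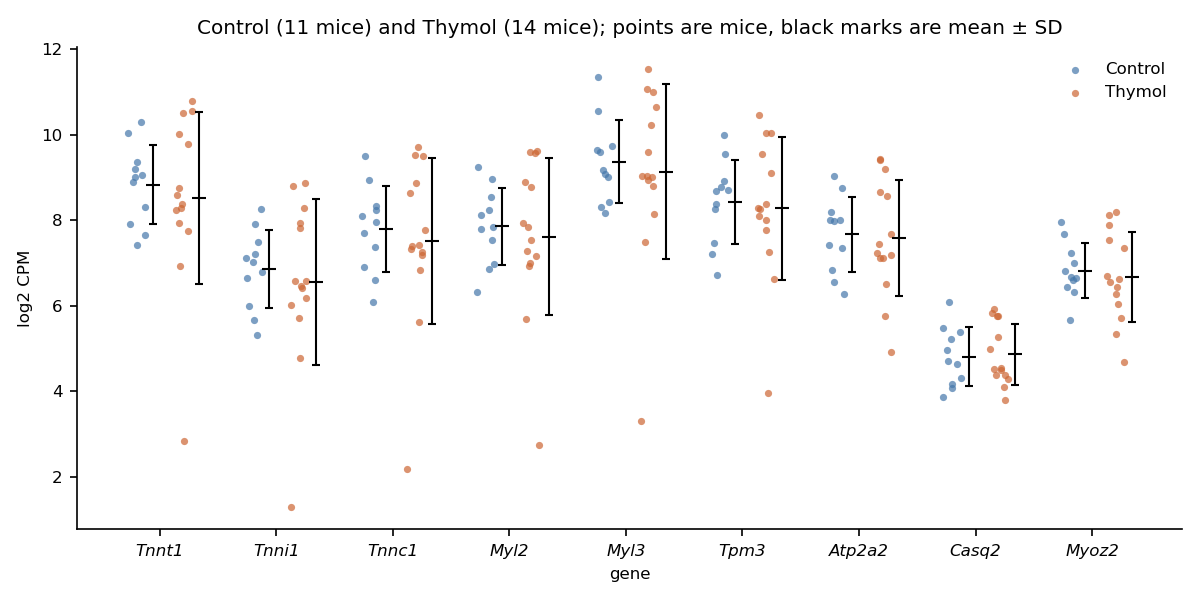
Level of each slow-fiber gene (log2 CPM, y axis) by group, with 1 point per mouse and black marks for the mean ± SD of 11 Control and 14 Thymol mice. The groups overlap for each gene, and the lowest Thymol point, from 1.29 for Tnni1 to 4.92 for Atp2a2, is Thymol 20 for all genes but Casq2.

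Set against all genes, this was wide variation. The SD between mice of the same group was 1.64 log2 for Tnnt1, 1.58 for Tnni1, 1.60 for Tnnc1, 1.499 for Myl2 and 1.67 for Myl3. It was 1.41 log2 for Tpm3, 1.17 for Atp2a2, 0.89 for Myoz2 and 0.71 for Casq2, and the median over 8829 genes was 0.28. Myl3 ranked 8 and Tnnt1 ranked 11 of all genes by this SD, and Casq2 ranked 195. Myh7, the slow myosin heavy chain itself, ranked 5 with an SD of 1.75 log2. Without Thymol 20 the SD was 1.12 log2 for Myl3 (rank 42), 1.10 for Tnnt1 (rank 43), 1.08 for Tpm3 (rank 49) and 1.04 for Atp2a2 (rank 56). For Casq2 it was then 0.71 (rank 185) and for Myh7 1.17 (rank 31), with a median of 0.27 over all genes. Over all 25 mice counting error was small beside it, since the SD was 43.9 times that expected from read counting for Myl3 and 6.67 times for Casq2. Counting error here covers reads and not molecules, because PCR copies were not marked.

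The spread was larger in Thymol than in Control for each of the 9 genes in mean absolute deviation from the group's median, but no difference passed the test. The SD was 2.02 log2 in Thymol and 0.93 in Control for Tnnt1, and 1.23 in Thymol without Thymol 20. For Tnni1 it was 1.94 and 0.91, with 1.26 without that mouse. In limma on absolute deviations, 0 of 8829 genes passed an adjusted p of 0.05 (0%) and 270 (3.06%) had an unadjusted p under 0.05, none of them in the group. The deviation of Tnnt1 was larger in Thymol by 0.63 log2 (SE 0.47, 95% interval -0.29 to 1.55, unadjusted p = 0.182, adjusted p = 0.9996), and that of Casq2 by 0.02 (SE 0.21, unadjusted p = 0.919).

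None of the 9 genes differed between Thymol and Control beyond the spread between mice. Tnnt1 averaged 8.83 ± 0.93 log2 CPM in Control (SD, n = 11) and 8.52 ± 2.02 in Thymol (SD, n = 14), a difference of -0.31 log2 (SE 0.58, limma, unadjusted p = 0.596, adjusted p = 0.9999). The 95% interval ran from -1.49 to 0.87, or from 0.355-fold to 1.83-fold. For Tnni1 the difference was -0.31 log2 (SE 0.56), for Tnnc1 -0.28 (SE 0.57), for Myl2 -0.24 (SE 0.53) and for Myl3 -0.23 (SE 0.59). For Tpm3 it was -0.15 log2 (SE 0.50), for Myoz2 -0.14 (SE 0.32), for Atp2a2 -0.08 (SE 0.41) and for Casq2 0.05 (SE 0.25). Across the table, 0 of 8829 genes (0%) passed an adjusted p of 0.05 in limma and 312 (3.53%) had an unadjusted p under 0.05, none of them in the group. Voom on the recovered reads also called 0 genes, with 304 at an unadjusted p under 0.05. The median difference was -0.23 log2 over the 9 genes, 8 of them lower in Thymol, and -0.0014 over all genes.

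The negative sign of the median over the 9 differences in mean rested on 1 mouse. This concerns the means and not the medians over mice given above. Without Thymol 20 all 9 differences were above 0, from 0.01 log2 for Myoz2 (SE 0.29) to 0.21 for Myl3 (SE 0.40), with a median of 0.13, and again none passed the test. The intervals were also narrower without it. That of Tnnt1 ran from -0.68 to 0.93 log2, or from 0.625-fold to 1.91-fold, and changes within this interval could not be told from none in these mice. Thymol 20 had a leukocyte marker sum of 248 CPM, the highest in Thymol (79.3 to 248 CPM, against 74.9 to 356 CPM in Control). It had an adipocyte marker sum of 1082 CPM (196 to 1939 CPM in Thymol, 205 to 2116 CPM in Control) and a sum of denervation markers of 108 CPM (49.4 to 117 CPM in Thymol, 48.9 to 113 CPM in Control). The part of any of these in its low slow-fiber values was not tested.

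**Figure D3:**
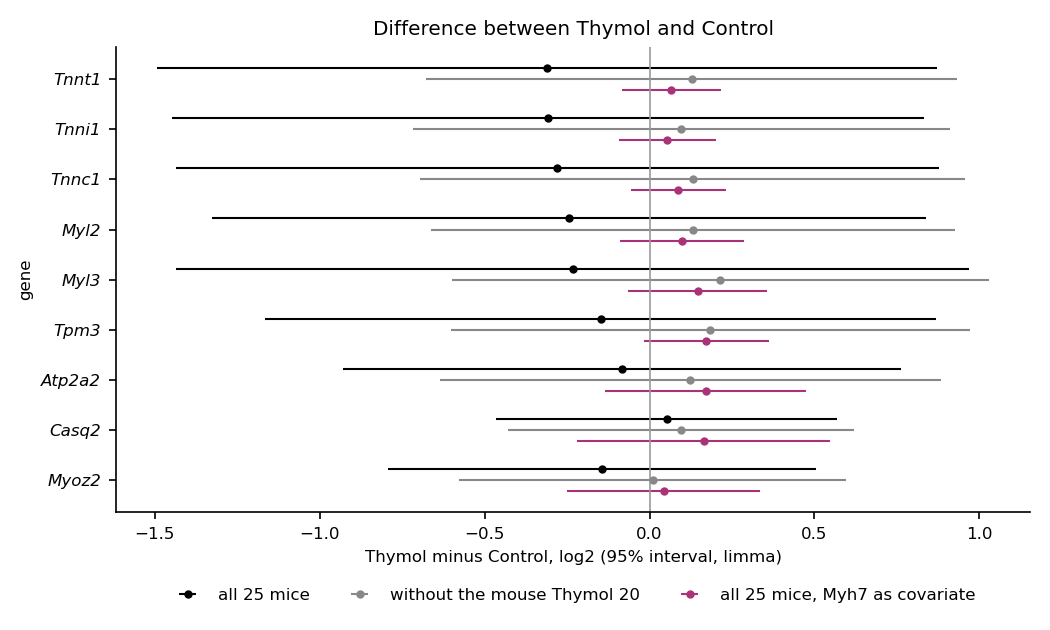
Difference between Thymol and Control (x axis, log2, limma estimate with its 95% interval) for each gene (y axis), from all 25 mice, without Thymol 20, and with the level of Myh7 as a covariate. All intervals hold 0, the estimates without Thymol 20 lie to the right of those from all mice, and the covariate shortens the intervals.

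The 9 genes rose and fell together from mouse to mouse. On values centered on the group means, Pearson's r over 25 mice had a median of 0.954 over the 36 pairs and ranged from 0.715 (Myl2 with Casq2) to 0.995 (Tnnt1 with Tnni1), with Spearman's rho from 0.815 to 0.990. Between Tnnt1 and Tnni1, r was 0.995 and rho 0.987 (two-sided permutation p = 1e-05 for each, the smallest that 100000 permutations give, unadjusted, 1 of 36 pairs), and r was 0.990 without the 2 mice farthest from the median of Tnnt1. Among the 10 pairs of troponins and light chains r was between 0.982 and 0.995. These libraries share the scaling by depth, and r of the mean standardized level of the 9 genes with log2 total reads was -0.07, with rho -0.09.

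The co-variation did not rest on Thymol 20. Without this mouse the median r over the 36 pairs was 0.974, with a range from 0.847 to 0.992, and r between Atp2a2 and Tnni1 went from 0.954 to 0.992. The log2 ratio of Tnni1 to Tnnt1 had an SD of 0.17 over all 25 mice, with group means left in. Each gene alone had an SD near 1.6 within groups, and read counting would give 0.10 for the ratio. Over the 10 pairs of troponins and light chains the SD of the ratio had a median of 0.22, and it was highest for Myl2 with Myl3 at 0.34, where read counting would give 0.07. The ratio of Casq2 to Tnnt1 had an SD of 1.22, and 0.54 without Thymol 20. Over all 25 mice, for each of the 9 genes, all 8 others were among the 50 most correlated of the 8828 other genes, and the most correlated gene was another gene of the group for 7 of them. The exceptions were Tpm3, with Myh6 at r = 0.992, and Casq2, with Inpp4b at r = 0.889. Without Thymol 20 there was no exception, with Tnnc1 most correlated with Tpm3 (r = 0.990) and Myl3 with Casq2 (r = 0.911).

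Myh7 encodes the myosin motor that defines type I fibers, and it was used as a measure of slow-fiber RNA, a choice made after the values were seen. Myh7 lay between 6.62 and 9.62 log2 CPM in Control (median 8.61) and between 1.68 and 10.08 in Thymol (median 7.87). In limma with group and Myh7 as terms, 65 of 8828 genes (0.736%) had a positive slope on Myh7 at an adjusted p under 0.05 and 8 (0.0906%) a negative one, and the positive ones included all 9 genes of the group. The slope was 0.94 log2 per log2 for Myl3 (SE 0.03), 0.93 for Tnnt1 (SE 0.02), 0.91 for Tnnc1 (SE 0.02), 0.90 for Tnni1 (SE 0.02) and 0.84 for Myl2 (SE 0.03). It was 0.79 for Tpm3 (SE 0.03), 0.63 for Atp2a2 (SE 0.04), 0.46 for Myoz2 (SE 0.04) and 0.28 for Casq2 (SE 0.06). A slope of 1 would mean that a gene changed by the same factor as Myh7.

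Without Thymol 20, 92 genes (1.04%) had a positive and 29 (0.329%) a negative slope, and all 9 genes of the group were again among the positive ones. Atp2a2 then had a slope of 0.88 (SE 0.03) and Tpm3 of 0.91 (SE 0.03), so that 7 genes lay between 0.88 and 0.96. Casq2 had 0.53 (95% interval 0.40 to 0.65) and Myoz2 0.64 (95% interval 0.55 to 0.74), and neither interval met that of Atp2a2 (0.83 to 0.93), although the difference between slopes was not tested itself. On the linear scale, where a straight line was fitted to CPM over all 25 mice, the value at no Myh7 was 13.03 CPM for Casq2 (SE 2.09), 41.0% of its mean, and 35.5 CPM for Myoz2 (SE 6.99), 28.1% of its mean. It was 16.9 CPM for Atp2a2 (SE 5.31), 6.51% of its mean. For Tnnt1, Tnni1 and Tnnc1 it was -5.47 (SE 18.8), -3.72 (SE 6.45) and -3.71 CPM (SE 11.5). Thymol 20 itself, with 2.94 CPM of Myh7, had 19.4 CPM of Casq2, 25.6 CPM of Myoz2 and 29.9 CPM of Atp2a2, against 6.86 CPM of Tnnt1 and 2.18 CPM of Tnni1.

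**Figure D4:**
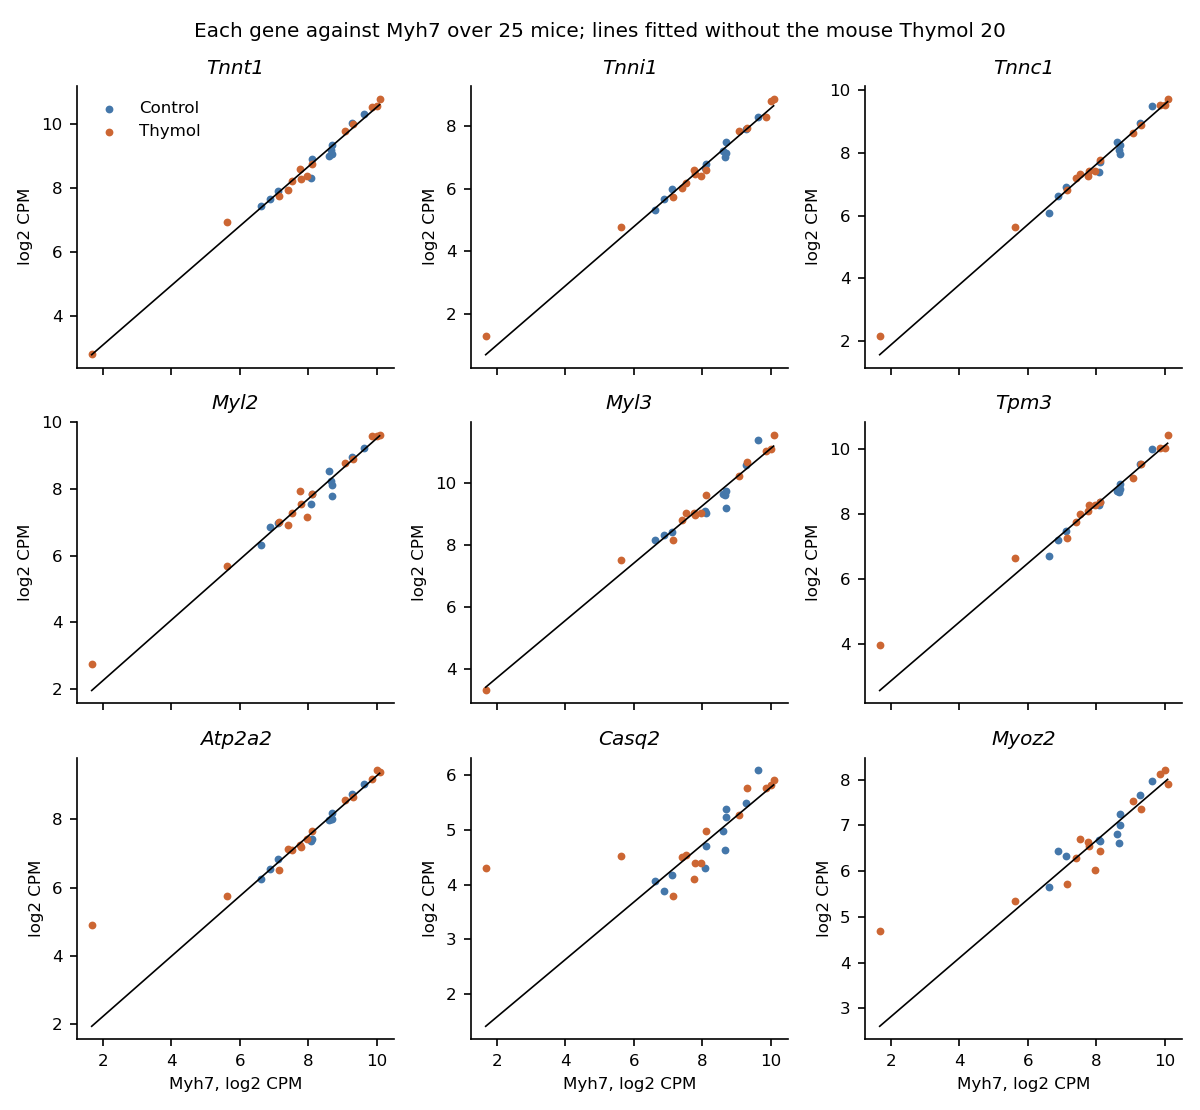
Level of each slow-fiber gene (y axis, log2 CPM) against Myh7 (x axis, log2 CPM) in 11 Control and 14 Thymol mice, with a line whose slope was fitted without Thymol 20 and which is extended to that mouse at the left. Thymol 20 lies close to the line for Tnnt1 and Myl3 and above it for Tpm3, Atp2a2, Casq2 and Myoz2.

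With Myh7 held fixed, Thymol was compared with Control at a given level of Myh7, and again no gene passed. Myh7 was itself measured after dosing and was almost in proportion to several of the 9 genes. A difference shared with Myh7 is thus taken out, and the narrower intervals do not bound the whole difference between groups. Of 8828 genes 0 (0%) passed an adjusted p of 0.05 and 316 (3.58%) had an unadjusted p under 0.05 in limma, none of them in the group. The differences were all above 0, from 0.04 log2 for Myoz2 (SE 0.14) to 0.17 for Tpm3 (SE 0.09, unadjusted p = 0.0739, adjusted p = 0.9995). For Tnnt1 the difference was 0.07 log2 (SE 0.07, 95% interval -0.08 to 0.22), or from 0.943-fold to 1.16-fold. Without Thymol 20 in this fit 8 of 9 were above 0, and Tpm3 had 0.12 log2 (SE 0.07, unadjusted p = 0.0858).

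Each slow gene has a fast-fiber counterpart, and these varied far less between mice. Tnnt3, the fast troponin T, had an SD of 0.16 log2 within groups and a range of 1.53-fold, and the SD of the fast counterparts other than Myl1 was between 0.11 and 0.19 log2. Of the 9 counterparts, 1 (Myoz1, slope -0.06, SE 0.02, adjusted p = 0.0416) had a negative slope on Myh7 that passed, and without Thymol 20 there were 2 (Myoz1, and Atp2a1, the fast SERCA1 pump, at -0.10, SE 0.03, adjusted p = 0.0373). Across mice, r between a slow gene and its counterpart ran from -0.725 for Myoz2 with Myoz1 to 0.05 for Myl3 with Myl1. Without Thymol 20 it ran from -0.720 for Atp2a2 with Atp2a1 to -0.07 for Myl3 with Myl1. For Tnnt1 with Tnnt3, r was -0.28 with that mouse and -0.57 without it. Myl1 differed from the other counterparts in lying at separate levels, from 10.16 to 10.70 log2 CPM in 16 mice (7 Control, 9 Thymol) and from 12.43 to 13.37 in the other 9 (4 Control, 5 Thymol). In the annotation 27.6% of the 31-base words at the ends of Myl1 transcripts also occur in another gene, most often in the pseudogene Mylf-ps.

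Slow-to-fast ratios were compared between groups as well, since a ratio within a library does not depend on its scaling. Tnnt1 minus Tnnt3 averaged -5.41 ± 0.97 log2 in Control (SD, n = 11) and -5.72 ± 2.08 in Thymol (SD, n = 14; two-sided permutation p = 0.686, unadjusted). The other 8 pairs had permutation p between 0.640 (Tnni1 with Tnni2, -0.34 log2) and 0.896 (Atp2a2 with Atp2a1, -0.07 log2). The 9 ratios were thus not distinguishable between groups at this spread.

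**Figure D5:**
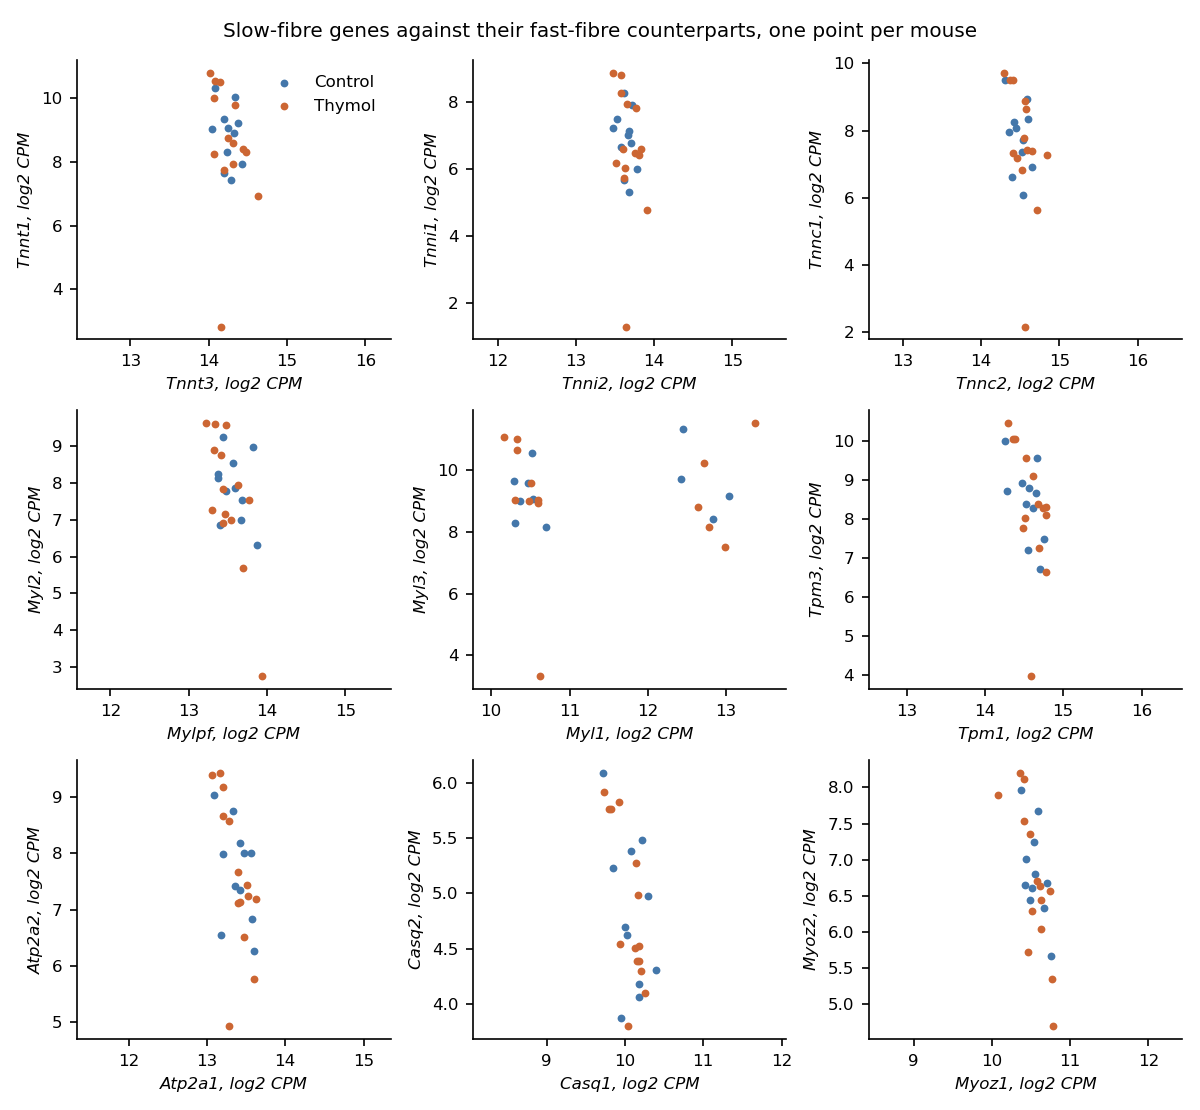
Level of each slow-fiber gene (y axis, log2 CPM) against its fast-fiber counterpart (x axis, log2 CPM, the same width of 4 log2 units in each panel) in 11 Control and 14 Thymol mice. The points form near-vertical bands, except for Myl1, which lies at separate levels.

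Other genes with a known place in slow fibers were examined from lists. Of 20 other slow-fiber genes 19 were in the table, and none differed between groups (0 at an unadjusted p under 0.05, median difference 0.02 log2). The smallest p belonged to Fabp3, a fatty acid carrier, with 0.17 log2 (SE 0.16, unadjusted p = 0.305), followed by the chaperone gene Hspb6 with 0.13 (SE 0.12), the cardiac troponin T gene Tnnt2 with 0.20 (SE 0.20) and the chaperone gene Cryab with 0.14 (SE 0.15). Of the 18 besides Myh7, 7 had a positive slope on Myh7, and 14 did without Thymol 20. Among 25 of 26 regulators of slow-fiber genes, 1 had an unadjusted p under 0.05 in Thymol against Control, near the share of 3.53% over all genes. It was the lipid-sensing receptor gene Ppard at -0.23 log2 (SE 0.10, unadjusted p = 0.0214, adjusted p = 0.9999). The next smallest p values were those of Mef2d at -0.08 log2 (SE 0.05), Ppargc1b at 0.21 (SE 0.14) and Eya1 at 0.12 (SE 0.09). Of the regulators, 1 had a positive slope on Myh7 (Prox1, 0.58), and 2 did without Thymol 20 (Prox1, 0.72, and Vgll2, 0.32).

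Of 14 further genes of calcium release and storage 13 were in the table, and none had an unadjusted p under 0.05 between groups. Stac3, an adaptor of the calcium channel, had the smallest p with -0.12 log2 (SE 0.08, unadjusted p = 0.120), and Sri, Asph and Jsrp1 had 0.16 (SE 0.13), -0.10 (SE 0.08) and 0.04 (SE 0.05). None of the 13 had a slope on Myh7 that passed, and without Thymol 20 only Jph2, which holds the reticulum to the surface membrane, did (-0.12, SE 0.03). Thus Atp2a2 and Casq2 followed the slow program between mice, and no other gene of this list had a positive slope that passed. Of 6 other fast-fiber genes none had an unadjusted p under 0.05, with -0.05 log2 for Actn3 (SE 0.10), 0.04 for Mybpc2 (SE 0.10), -0.05 for Mylk2 (SE 0.13) and 0.04 for Myh4 (SE 0.10). None of them had a slope on Myh7 that passed, and 2 had a negative one without Thymol 20 (Pvalb, -0.12, and Mylk2, -0.20).

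The genes most like the group outside it were found by r with the mean standardized level of the 9 genes over 25 mice. Myh6, the other slow and cardiac myosin heavy chain gene, had r = 0.985 and rho = 0.972, Strit1, a micropeptide that activates SERCA, had r = 0.976 and rho = 0.9746, and Myh7 had r = 0.976 and rho = 0.983. Homer2, a scaffold protein, followed with r = 0.942, and then Lgi1 (0.918), Idh2 (0.900), Rspo3 (0.900), Pdlim1 (0.891), Myh2, the type IIa myosin (0.878), and Mavs (0.878). In Thymol 20 Myh6 had 6 reads, Strit1 2 reads and Myh7 27 reads, so that Myh6, Strit1 and Myh7 were low in the same mouse. Reads of Myh6 and Myh7 may be split, since 28.6% and 27.6% of the words at their ends are shared with each other or with other genes. At the other end were Drap1 (r = -0.763), Ldha, the glycolytic lactate dehydrogenase (-0.758), Myoz1 (-0.730), Dusp3 (-0.723) and Prxl2b (-0.714). Without Thymol 20, 5 of the top 10 and 1 of the lowest 5 were the same genes, and these r were chosen as extremes, so they carry no test.

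Markers of other cell types were summed in each mouse. The mean standardized level had r between -0.27 and 0.23 with the summed levels of adipocyte, leukocyte, endothelial, smooth muscle, fibroblast, nerve, denervation and erythroid markers. For denervation markers rho was 0.415 over 25 mice and r was 0.475 without Thymol 20. Without that mouse the others lay between -0.15 and 0.17. Of the markers named for these lists, none of those in the table was at 0 in any mouse. For 2 cardiac markers in the table, Myh6 and Actc1, it had r = 0.797, with Myh6 alone at 0.985 and Actc1 alone at -0.18. For the summed fast counterparts r was -0.527 (rho -0.602), and for 6 other fast-fiber genes -0.584 (rho -0.601). Without Thymol 20 these r were -0.668 and -0.692. Between groups, all 5 endothelial, all 6 fibroblast and all 4 erythroid markers had lower means in Thymol, with medians of -0.08, -0.13 and -0.13 log2. None passed an adjusted p of 0.05 in limma, and 1 of these 15 (Tie1, -0.27 log2, SE 0.11) had an unadjusted p under 0.05, against 3.53% of all genes. Both cardiac markers also had lower means in Thymol, Myh6 at -0.15 log2 (SE 0.55) and Actc1 at -0.03 (SE 0.26). Signs were mixed in the adipocyte (3 of 6 lower in Thymol), leukocyte (2 of 5), smooth muscle (1 of 3) and denervation lists (2 of 5). The nerve markers are not reported here between groups. The part of fiber makeup, sampling of the muscle and innervation in the spread between mice was not tested.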

How the data were processed

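The samples were gastrocnemius libraries of 25 mice, grouped by the treatment in their labels. Per the labels and methods, the authors mapped QuantSeq FWD reads to GRCm38 with STAR 2.5.3, counted them with HTSeq 0.6.1, kept genes that reached 30 reads in 6 or more samples and scaled libraries by TMM. Whether counting used strand was not given in the sources used here, and Tnnc1, Myl2, Myl3 and Atp2a2 overlap genes on the other strand. The deposited values are log2 CPM, to which the authors added 2 reads in a library of mean size. From these values whole reads were recovered for 100.0% of entries, within 0.05 reads of a whole number, and each of the 8829 genes reached the filter. Depth per mouse is the sum of those reads.

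Groups were compared with limma 3.58.1 (R 4.3.3) fitted to the log2 values (linear model, trended empirical Bayes, two-sided, Benjamini-Hochberg over all genes, threshold 0.05), because the values are on a log scale, and the same was done for absolute deviations from the group median. Correlations used values centered on group means, with 100000 permutations where a p is given, in scipy 1.17.1 under Python 3.11.15 (tables in pandas 2.3.3, arrays in numpy 2.4.6, plots in matplotlib 3.10.9). The fits were tested on simulated data. Gene positions are from GENCODE M21. The genes of the group and all gene lists were chosen with earlier results of these data known. Besides the group, the text names the 9 fast counterparts, Myh7, up to 4 genes with the smallest p from each further list, and the 10 most and 5 least correlated genes. Inpp4b, Actc1, Tie1, Prox1, Vgll2, Jph2, Pvalb, Csrp3, Cryab (in the closing text), Pygm, Camk2a and the genes with shared words were named after their values were seen. The values of 1 marker gene are not reported here. Alternatives were quantile normalization, centering on the library median, a filter on low means, another added count, voom on recovered reads, robust and untrended moderation, library weights, the number of the library as covariate, a block on the number that comes first in each label, and each mouse left out. The Myh7 slope and covariate were added after seeing the data.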

Additional observations from a re-analysis of the deposited data

How the results depend on the processing

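In all 12 alternatives to the limma fit, and with each mouse left out, no gene of the group passed an adjusted p or an unadjusted p of 0.05 between Thymol and Control, and the count for the spread was also 0 under the 3 alternatives run for it and with each mouse left out. The median r over the 36 pairs lay between 0.943 and 0.954 under 5 alternatives and between 0.949 and 0.974 with a mouse left out, and all 9 genes kept a positive slope on Myh7 without Thymol 20. No slow-to-fast ratio differed between groups under 2 alternatives or with a mouse left out.

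The sign of the differences did change. With the number that comes first in each label as a block, in the manner of a replicate block, the differences in log2 were 0.24 for Tnnt1, 0.16 for Tnni1, 0.20 for Tnnc1, 0.28 for Myl2, 0.24 for Myl3, 0.21 for Tpm3, 0.19 for Atp2a2 and 0.22 for Myoz2. The labels do not say what this number is. It takes 16 values, 7 of them with mice of both groups (16 mice), and Thymol 20 is the only mouse with its value, so that the block gives it no weight. With library weights the differences were 0.0474 log2 for Tpm3 and 0.0854 for Atp2a2. With Myh7 as a covariate they were 0.0653 for Tnnt1, 0.0538 for Tnni1, 0.0876 for Tnnc1, 0.0974 for Myl2, 0.146 for Myl3, 0.172 for Tpm3, 0.171 for Atp2a2 and 0.0426 for Myoz2. With this covariate and without Thymol 20 they were 0.0652 for Tnnt1, 0.0332 for Tnni1, 0.0669 for Tnnc1, 0.0697 for Myl2, 0.153 for Myl3, 0.123 for Tpm3 and 0.0639 for Atp2a2. The cause of these changes of sign was not tested.

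With each mouse left out in turn, the median difference over the 9 genes ran from -0.40 to 0.13 log2, Tnnt1 from -0.48 to 0.13, Tnni1 from -0.49 to 0.10, Tnnc1 from -0.45 to 0.13, Myl2 from -0.40 to 0.13, Myl3 from -0.42 to 0.21, Tpm3 from -0.32 to 0.18, Atp2a2 from -0.22 to 0.12, Casq2 from -0.0423 to 0.18 and Myoz2 from -0.26 to 0.00941. The slow-minus-fast differences ran from -0.50 to 0.12 for Tnnt1 and Tnnt3, -0.53 to 0.0659 for Tnni1 and Tnni2, -0.52 to 0.0840 for Tnnc1 and Tnnc2, -0.36 to 0.23 for Myl2 and Mylpf, -0.54 to 0.11 for Myl3 and Myl1, -0.38 to 0.15 for Tpm3 and Tpm1, -0.23 to 0.13 for Atp2a2 and Atp2a1, -0.0204 to 0.25 for Casq2 and Casq1 and -0.27 to 0.0430 for Myoz2 and Myoz1. The high ends of the slow troponins and light chains came from leaving out Thymol 20. Depth limits little here except in Thymol 20, where Tnni1 had 20 reads.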

Other observations

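Some stress and remodeling genes listed for slow fibers parted from the group in Thymol 20, a description chosen after the values were seen. Cryab, a small heat-shock chaperone, was at 10.48 log2 CPM in this mouse, its highest value of 25 mice, and Csrp3, a stretch-associated Z-disc protein, was at 6.85, also its highest value. Over 25 mice, r with the mean standardized level of the group was 0.203 for Cryab and 0.3002 for Csrp3, and without this mouse 0.810 and 0.726. Prox1, a transcription factor with a role in slow fibers, stood on the other side, with 5 reads in Thymol 20, its lowest value, and r = 0.874 over 25 mice and 0.821 without that mouse. Among the genes least like the group without Thymol 20 were Pygm, muscle glycogen phosphorylase (r = -0.785), Camk2a (-0.762) and Atp2a1 (-0.747). These are correlations across mice picked as extremes and carry no test.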
